A study of Mus musculus with 17 samples.

Results

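Histone H3.3 is a variant of histone H3 that is built into chromatin independently of DNA replication, and it accumulates over active genes and their promoters. In the mouse it is encoded by a pair of genes, H3f3a and H3f3b, which make the same protein from different DNA sequences. Dedicated chaperones carry it to DNA. The HIRA complex (Hira, the ubinuclein Ubn1 or Ubn2, and Cabin1) works with Asf1a, which hands over the histone dimer, and places H3.3 at genes, whereas Daxx works with Atrx at heterochromatin and telomeres. H3.3 matters in cells that stop dividing, such as lens fibers, because the replication-dependent H3 proteins are made mainly during DNA synthesis.

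H3.3 occupancy was examined at these 8 genes themselves, that is at H3f3a, H3f3b, Hira, Cabin1, Ubn1, Ubn2, Asf1a and Daxx, out of 21911 protein-coding genes in the GENCODE vM21 annotation of mm10. The genes were chosen for their function, at a time when earlier results of these data were known. Chromatin of microdissected newborn lens epithelium and lens fibers of CD1 mice, an outbred strain, had been immunoprecipitated with an antibody against H3.3, with 2 biological replicates per compartment and no further treatment or genetic change in either. The sample titles give day 1 after birth and the labels 150 lenses per sample, whereas the methods of the study give P0.5 and 200 lenses, so each library is a pool of many lenses. The lens epithelium is the dividing anterior cell sheet, and the fibers are the elongated cells that differentiate from it. Each library came as a list of islands, stretches of the genome enriched in ChIP reads that SICER2 called with windows of 200 bp and gaps of up to 600 bp, each with its count of reads. Every island that shared at least 1 bp with a gene body or with the 5 kb on either side of it, together called the window of the gene, was assigned to that gene. Of each library and window, 3 quantities were taken: the bp (or the share of the window in percent) covered by islands, the length of the longest island, and the read density, which is the number of reads per kb of island.

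The lists of the compartments differed in size, and all values below have to be read with that in mind. Epithelium replicates 1 and 2 had 10389 and 14434 islands with 1331369 and 1430373 reads, and fiber replicates 1 and 2 had 27059 and 35940 islands with 5041885 and 5359085 reads. The fiber lists covered on average 3.88 times as many bp as the epithelium lists, while the median density of an island lay between 27.4 and 28.3 reads per kb in all 4 libraries. Sequencing depth is unknown, and the libraries were not scaled to each other, so that how much of the larger fiber coverage came from depth was not tested. With 2 libraries per compartment, an exact permutation test (two-sided) has 0.33 as its smallest p. A gene was therefore counted as different when both libraries of one compartment lay above both of the other, and each count is set beside the share of all genes that meet the same condition. The list of 8 lens fiber markers, such as Mip and Bfsp1, had islands at 5, 6, 8 and 8 genes in epithelium replicates 1 and 2 and fiber replicates 1 and 2, and the median covered share of its windows was 17.9% and 11.5% in the epithelium and 96.4% and 93.5% in the fibers. The 6 markers of lens epithelium had islands at 4, 5, 5 and 6 genes in the same order, and the median covered share of their windows was 9.97% and 41.4% in the epithelium and 60.4% and 63.4% in the fibers. The epithelium markers were thus also covered more in both fiber libraries. Of 13 markers of retina, vessels, macrophages, and mesenchyme and cornea, between 5 and 7 had an island in each library, and Crx, Nrl, Kdr, Ptprc, Col3a1 and Krt12 had none in any. The part of such other cells in the values below was not tested, and in bulk chromatin a change in the share of cells and a change in H3.3 per cell cannot be told apart.

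Promoter sequences of the genes are shown first, since at least 1 fiber library had an island over the start of each of the 8 genes. All sequences are from the RefSeq promoter table on GRCm38.p6, run 5′ to 3′ on the strand of the gene, and carry in capitals every match, on either strand, to CCAAT (the CCAAT box), TATAAA (the TATA box), GGGCGG (the GC box) or TGACGTCA (the cAMP response element). Bases inside annotated exons are left out, other than short stretches around a motif. H3f3b starts at position 116024504 of chromosome 11, on the minus strand, and 214 of the 250 bases upstream of this start belong to an exon of a longer H3f3b transcript. Its 4 CCAAT boxes and its TATA box are shown as short stretches, named by the distance of the first base of the motif from the start.

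CCAAT box 214 bases upstream, chr11:116024704-116024728: ttgcatccagCCAATcctgaagcaa
CCAAT box 190 bases upstream, chr11:116024680-116024704: attgtaacagCCAATcagtggcctg
CCAAT box 167 bases upstream, chr11:116024657-116024681: tgaacaccggCCAATcaggaaacgg
CCAAT box 97 bases upstream, chr11:116024587-116024611: aaagctcccgCCAATcgaaaaagtc
TATA box 27 bases upstream, chr11:116024516-116024541: gcagcgtctcTATAAAtatggaggcg

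All 4 CCAAT boxes of H3f3b point in the direction of transcription. At least 1 CCAAT was found in the upstream 250 bases of 33.8% of 32851 promoters and 4 or more in 0.84%, and TATAAA was found in 12.4%. The H3f3a promoter had no TATAAA and 4 GC boxes, the first pair of which overlap. It also had 1 CCAAT, as the reverse complement, 24 bases upstream of its start, inside an annotated exon and not shown here. Its stretch outside exons reads as follows.

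H3f3a, chr1:180813633-180813775, minus strand: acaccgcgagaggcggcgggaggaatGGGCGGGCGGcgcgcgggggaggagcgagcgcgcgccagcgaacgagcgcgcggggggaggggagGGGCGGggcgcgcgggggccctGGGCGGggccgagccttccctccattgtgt

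GGGCGG was present upstream of 32.7% of all promoters. Over 300 bases around the start, the H3f3a promoter was 74% G and C with 39 CpG dinucleotides, above 95.2% and 95.6% of promoters, whereas that of H3f3b was 55% G and C with 24 CpG, above 56.6% and 80.0% of promoters. The genes for H3.3 thus differ in promoter sequence as well as in coding sequence, where 313 of 408 nucleotides (76.7%) are identical and the longest identical stretch has 23 nucleotides, far under the read length of 75 nt. The ubinuclein genes both hold TGACGTCA, which was found upstream of 1.55% of promoters. They had islands only in the fiber libraries, as did Hira, which has no TGACGTCA in this stretch. Of the upstream 250 bases of Ubn1, 57 belong to an exon of the divergent gene Glyr1 and are left out.

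Ubn1, chr16:5049864-5050056, plus strand: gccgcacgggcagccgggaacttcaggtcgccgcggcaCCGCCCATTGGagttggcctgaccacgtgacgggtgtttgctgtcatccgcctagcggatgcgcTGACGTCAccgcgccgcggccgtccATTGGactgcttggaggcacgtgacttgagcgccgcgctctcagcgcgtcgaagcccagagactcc
Ubn2, chr6:38433675-38433924, plus strand: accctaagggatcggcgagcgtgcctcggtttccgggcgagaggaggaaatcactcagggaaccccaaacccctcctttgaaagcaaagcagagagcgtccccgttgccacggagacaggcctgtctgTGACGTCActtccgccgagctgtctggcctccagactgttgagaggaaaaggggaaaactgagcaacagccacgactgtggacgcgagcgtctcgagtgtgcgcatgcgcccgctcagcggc

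None of the other 6 genes had TGACGTCA in this stretch, and TATAAA was found in H3f3b alone among the 8. A match to a motif is a description of the letters, and binding of a factor there was not measured.

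H3.3 islands were present at all 8 genes in both fiber libraries, and at 4 of the 8, H3f3a, H3f3b, Cabin1 and Daxx, in all 4 libraries. Hira, Ubn1 and Ubn2 had islands in both fiber libraries and in no epithelium library, as did 3334 genes or 15.2% of all protein-coding genes. Asf1a had an island in both fiber libraries and in epithelium replicate 2. For comparison, 1 library or more had an island at 64.5% of protein-coding genes, and all 4 had one at 23.9%. An absent island says that no enrichment was called there, and not that H3.3 was absent, since no island of fewer than 18.8 reads per kb is listed for epithelium replicate 1, and none of fewer than 17.3 for replicate 2.

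**Figure D1:**
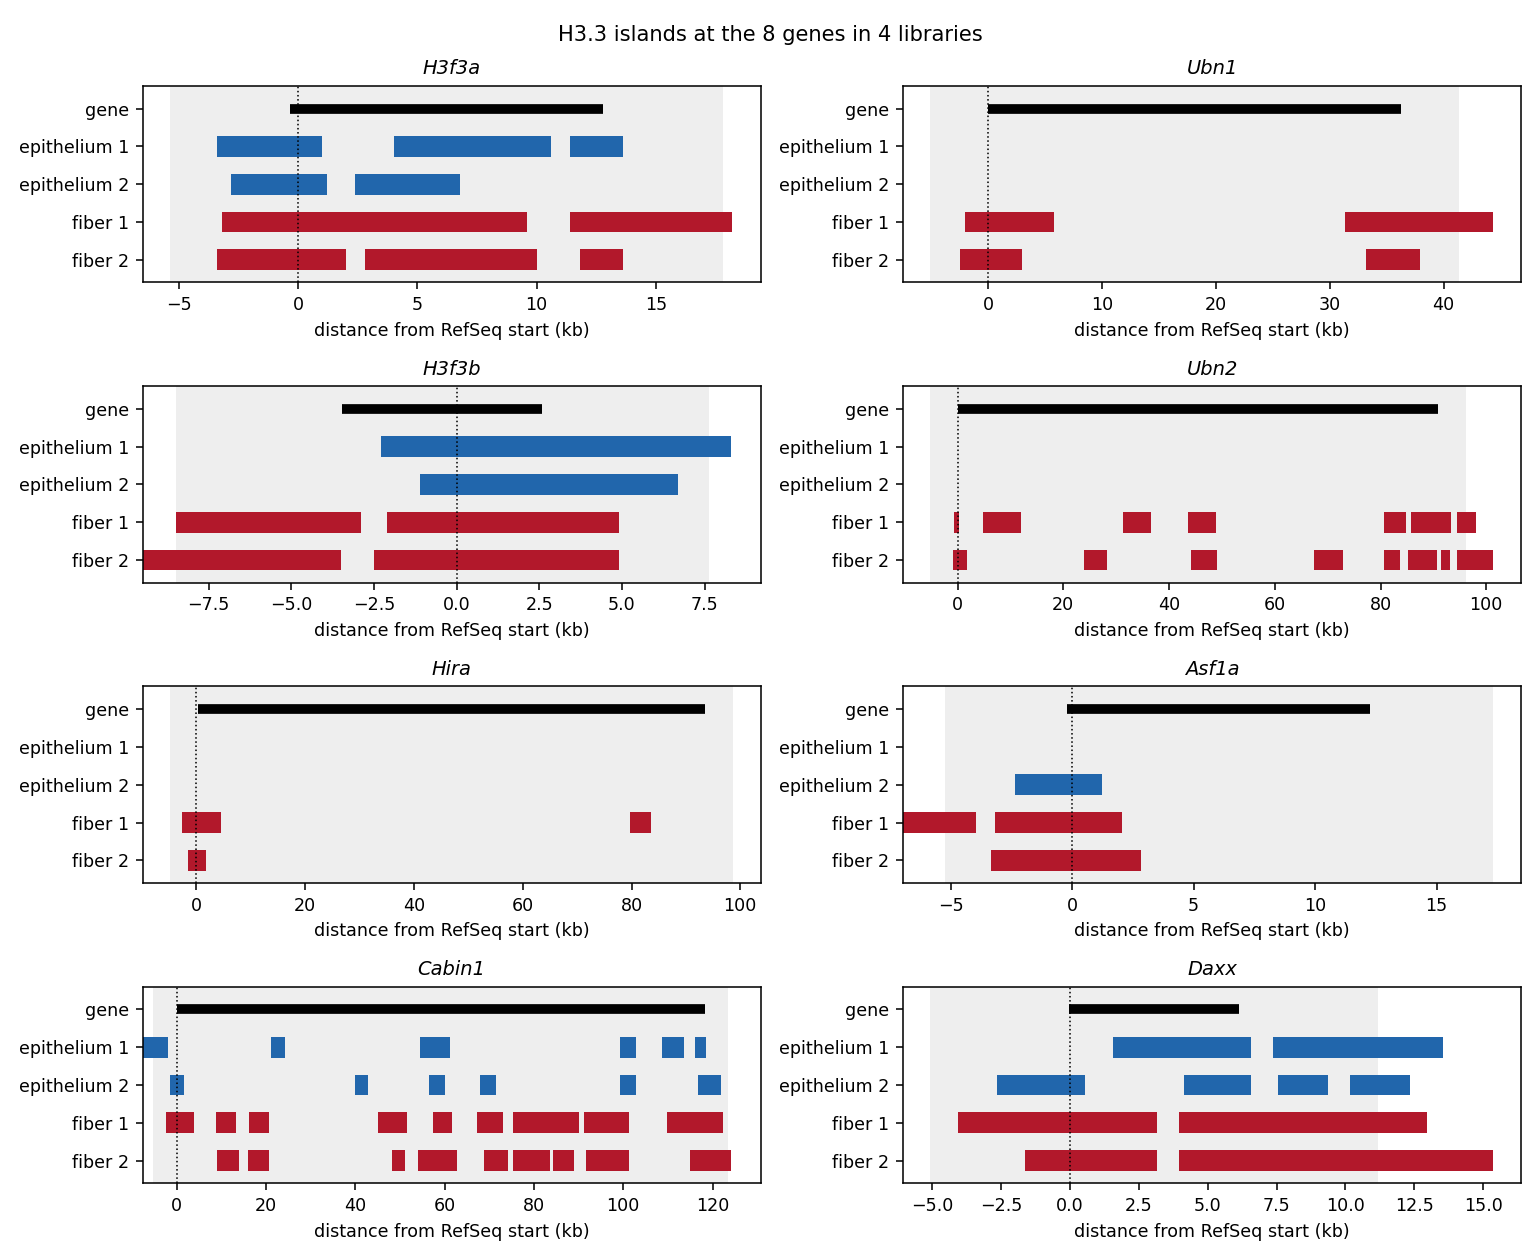
Islands (bars) at the 8 genes in epithelium (blue) and fiber (red) replicates 1 and 2, by distance from the RefSeq start in kb, with the gene body in black and the window of the gene shaded in grey. Hira, Ubn1 and Ubn2 have no bar in either epithelium library, and at H3f3b both fiber libraries have a second island upstream of the RefSeq start, reaching beyond the gene, where the epithelium libraries have none.

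The H3f3b gene (ENSMUSG00000016559.14, chr11:116021912-116027962, minus strand) stood apart in shape. In epithelium replicate 1 a single island of 10600 bp with 371 reads ran over the start, the coding exons and the whole of the downstream 5 kb. In epithelium replicate 2 a single island of 7800 bp with 278 reads covered the same start and 82.2% of the downstream 5 kb. In fiber replicates 1 and 2 the island over the start was 7000 bp with 225 reads and 7400 bp with 214 reads, and it reached 46.2% of the downstream 5 kb in both. The island over the start was thus longer and held more reads in both epithelium libraries than in either fiber library, although the fiber lists as a whole held more and longer islands.

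The fiber libraries had in addition a second island, of 5600 bp with 144 reads in replicate 1 and of 6000 bp with 176 reads in replicate 2, upstream of the RefSeq start. In replicate 1 it overlaps the far end of the longer H3f3b transcript, and in replicate 2 it lies wholly outside the gene. It spans the start of Unk, a neighbouring gene for an RNA-binding zinc finger protein that is transcribed in the opposite direction, and the epithelium libraries had no island there. The share of the upstream 5 kb of H3f3b that was covered was accordingly 0% in both epithelium libraries against 100% and 99.2% in fiber replicates 1 and 2. Because of this second island the covered share of the whole window was higher in fibers, with 61.6% and 48.6% in epithelium replicates 1 and 2 against 78.3% and 77.0% in fiber replicates 1 and 2. Over the gene body alone the shares were 80.8% and 61.0% against 86.8% and 84.1%.

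The read density of the H3f3b islands was 35.0 and 35.6 reads per kb in the epithelium libraries and 29.3 and 29.1 in the fiber libraries, so the groups did not overlap, and the mean difference was -6.13 reads per kb (35.3 ± 0.45 against 29.2 ± 0.13, SD, n = 2 each, exact permutation test p = 0.33). The island over the start taken alone had 35.0 and 35.6 reads per kb in the epithelium and 32.1 and 28.9 in the fibers. Within its own library that island was longer than 97.6% and 96.8% of all islands in epithelium replicates 1 and 2, and than 71.6% and 84.1% in fiber replicates 1 and 2. Among genes with an island in the same library, the H3f3b density stood above 93.8% and 94.8% of them in the epithelium and above 64.5% and 59.9% in the fibers.

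Over the 5236 genes with an island in all 4 libraries, the median fiber to epithelium ratio was 2.12 for covered bp, 2.21 for the longest island and 1.02 for density. The ratios of H3f3b were 1.41, 0.783 and 0.827, and 21.7%, 1.55% and 3.63% of these genes had lower ones. H3f3b was the 1 gene of the 5236 in which covered bp was higher in both fiber libraries while longest island and density were both higher in both epithelium libraries, a combination that was looked for after its values at H3f3b had been seen. The length part of it rests on island borders. The shorter epithelium island exceeded the longer fiber island by 400 bp, which is 2 windows of 200 bp, and the gaps that separate the fiber islands were 800 bp in replicate 1 and 1000 bp in replicate 2, just above the 600 bp that SICER2 bridges. Islands no more than 1000 bp apart were also merged, an alternative chosen after seeing the data. The islands at H3f3b became 33000 and 28800 bp long in fibers, longer than the window of the gene, against 10600 and 7800 bp in epithelium. The density of the merged fiber islands was 24.8 and 24.9 reads per kb. Merging added the length of the gaps without reads, and it also joined neighbouring islands beyond the window with their own reads. The epithelium islands did not change. The merged fiber density thus mixes gaps and neighbouring islands with those of H3f3b, and is no test of the order of the compartments.

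**Figure D2:**
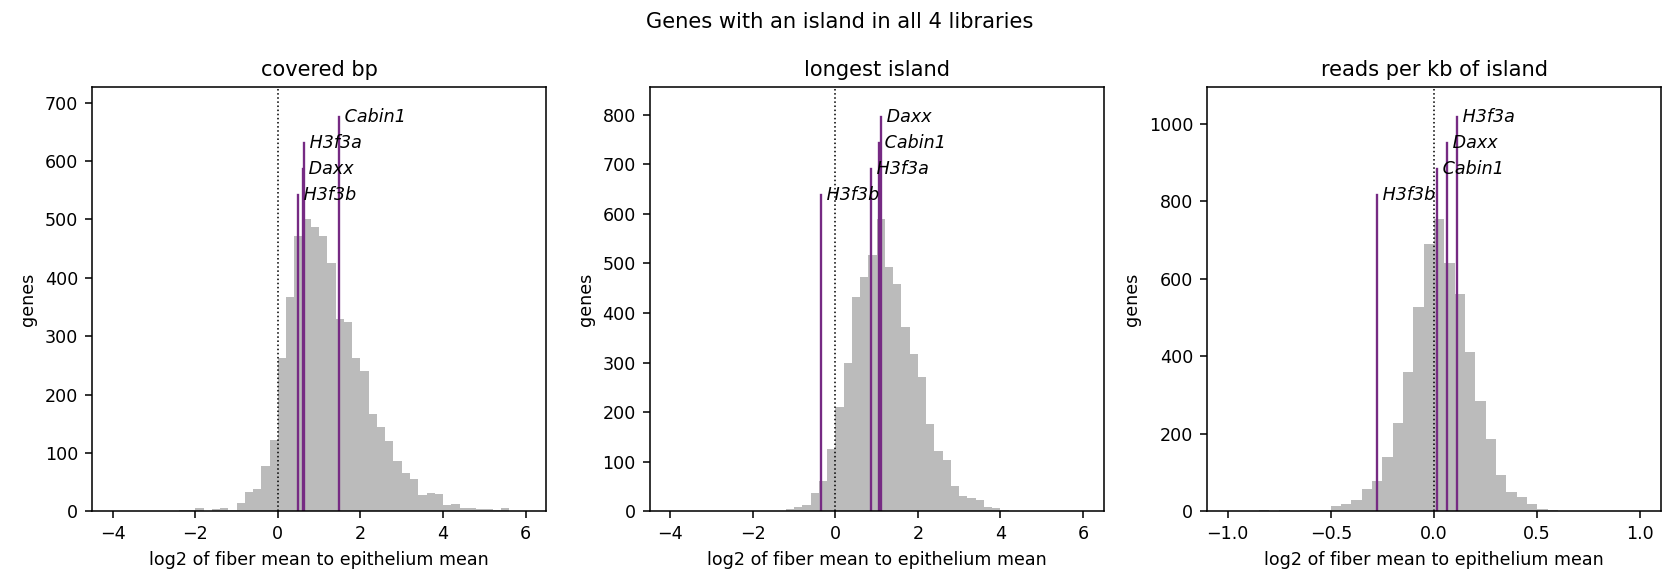
Distribution of the log2 ratio of the fiber mean to the epithelium mean of covered bp, longest island and reads per kb over the 5236 genes with an island in all 4 libraries (grey bars, number of genes), with 4 of the 8 genes marked by purple lines. H3f3b lies below 0 for longest island and for reads per kb, and the other marked genes lie above 0 in all 3 panels. Outside the plotted range are 2 genes for covered bp and 10 for reads per kb.

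The other gene for H3.3, H3f3a (ENSMUSG00000060743.12, chr1:180800832-180813943, minus strand), had islands over its start in all 4 libraries. Its window was covered to 57.1% and 36.3% in epithelium replicates 1 and 2 and to 82.9% and 62.3% in fiber replicates 1 and 2. The groups did not overlap, but the replicates of each compartment lay further apart than the lower fiber value and the higher epithelium value (46.7% ± 14.7 against 72.6% ± 14.6, SD, n = 2 each). The longest island was 6600 and 4400 bp in the epithelium and 12800 and 7200 bp in the fibers, and its density differed little, with 26.7 and 26.1 against 28.9 and 28.1 reads per kb. In contrast to H3f3b, the reads per kb of H3f3a were thus higher in both fiber libraries. The island over the start also holds the start of H3f3aos, an antisense transcript, and ChIP reads cannot be divided between the strands.

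Between the genes for H3.3, density was higher at H3f3b than at H3f3a in all 4 libraries, by the widest margin in the epithelium. Exons of both genes have copies elsewhere in the genome, which matters for the placement of reads. Of all stretches of 75 nt within exons, 21.6% in H3f3a and 13.7% in H3f3b occur more than once in the assembled chromosomes. Those of H3f3a were found at 32 other places on 14 chromosomes and those of H3f3b at 2 other places on 2 chromosomes. Islands overlapped 2, 1, 1 and 4 of the 32 places in epithelium replicates 1 and 2 and fiber replicates 1 and 2, and none of the 2 places of H3f3b in any library. Within the islands at the window, repeated stretches made up between 0.812% and 1.62% for H3f3a and between 4.59% and 6.44% for H3f3b.

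Among the subunits of the HIRA complex, Hira (ENSMUSG00000022702.16, chr16:18877037-18970309, plus strand), the histone chaperone that gives the complex its name, had no island in either epithelium library. In fiber replicate 1 it had an island of 7000 bp with 213 reads over the start and 1 of 4000 bp with 86 reads near the end of the gene, and in fiber replicate 2 a single island of 3400 bp with 135 reads over the start. At 39.7 reads per kb this last island was denser than 97.2% of the islands of its library. The start is shared with Mrpl40, a gene for a mitochondrial ribosomal protein transcribed in the opposite direction, so these reads belong to both. The covered share of the window was 10.7% and 3.29% in the fiber libraries, the lowest among the 8 genes, and islands covered 8.75% and 1.68% of the gene body of 93.3 kb. Of the 75-nt stretches in the islands of fiber replicate 1, 9.29% occur more than once in the genome, against 1.17% in those of fiber replicate 2.

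Ubn1 (ENSMUSG00000039473.8, chr16:5050057-5086289, plus strand) and Ubn2 (ENSMUSG00000038538.17, chr6:38433950-38524825, plus strand) encode the HIRA subunits that bind the H3.3 dimer. Neither gene had an island in the epithelium. At Ubn1 both fiber libraries had 1 island over the start, of 7800 bp in replicate 1 and 5400 bp in replicate 2, and 1 at the other end of the gene, of 13000 and 4800 bp, which also overlaps Ppl, the periplakin gene, and no island between them. The covered share of the Ubn1 window was 38.3% and 22.1%. The Ubn2 window had 7 islands in replicate 1 and 8 in replicate 2, of which 6 in each overlapped the gene and were scattered over it while the rest lay beyond its end, and the covered share was 31.7% and 28.8%. The island over the Ubn2 start was short in fiber replicate 1, with 1000 bp, but with 51.0 reads per kb denser than 99.7% of the islands of that library. In replicate 2 it was 2800 bp long with 30.7 reads per kb.

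Cabin1 (ENSMUSG00000020196.10, chr10:75646112-75764341, minus strand), a large scaffold protein of the complex, was the longest of the genes at 118 kb, and its window had 6, 6, 9 and 9 islands in epithelium replicates 1 and 2 and fiber replicates 1 and 2. Its window was covered to 18.5% and 17.0% in epithelium and to 54.4% and 45.0% in fibers. Over the gene body alone the shares were 17.3% and 14.1% against 53.5% and 44.6%, and an island over the start was listed only in epithelium replicate 2 and fiber replicate 1. The islands held 28.0 and 28.3 reads per kb in epithelium and 27.8 and 28.9 in fibers, so that the groups overlapped (exact permutation test, p = 1). The ratio of covered bp, 2.80, was the highest of the 4 genes with islands in all libraries, and 65.5% of the 5236 genes had a lower one.

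Asf1a (ENSMUSG00000019857.7, chr10:53596757-53609225, plus strand) lies inside Mcm9, a gene for a DNA helicase. Epithelium replicate 1 had no island in its window, and replicate 2 had 1 of 3600 bp with 94 reads over the start. The fiber libraries had an island of 5200 bp with 145 reads and of 6200 bp with 172 reads at the same place. Fiber replicate 1 had a further island of 3000 bp with 85 reads upstream of the gene, inside Mcm9. The covered share of the window was 0% and 16.0% in the epithelium libraries and 28.7% and 27.6% in the fiber libraries, and counting only islands with their midpoint in the window, fiber replicate 1 had 23.1%. No 75-nt stretch of the window occurs more than once in the genome.

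Daxx (ENSMUSG00000002307.16, chr17:33909414-33915590, plus strand), the chaperone of the second H3.3 pathway, lies close to several genes, among them Tapbp and Zbtb22, whose starts follow its end by less than 1 kb. Its window was covered to 54.3% and 51.9% in epithelium and to 89.0% and 74.1% in fibers. The longest island was 6200 and 3200 bp in epithelium and 9000 and 11400 bp in fibers, and in all libraries except epithelium replicate 2 it overlapped Tapbp and Zbtb22. That of 6200 bp in epithelium replicate 1 lay wholly beyond the end of Daxx, and the longest island overlapping the gene body there was 5000 bp. The start itself was under an island in epithelium replicate 2 and in both fiber libraries. The islands held 29.9 and 31.1 reads per kb in epithelium and 31.7 and 32.0 in fibers, which do not overlap but differ by 1.32 reads per kb in the mean. Counting only islands that overlap the gene body, the densities were 24 and 29.5 in epithelium against 31.7 and 32.0 in fibers.

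Of the 3 quantities, covered bp was higher in both fiber libraries than in either epithelium library at 8 of 8 genes. The same held for 69.7% of the 14126 genes with an island in at least 1 library, and the reverse, epithelium higher, held for none of the 8 and for 1.04% of all, so 8 of 8 was close to what most genes showed. The longest island was longer in both fiber libraries at 7 of 8 genes, against a background of 68.5%, and longer in both epithelium libraries at H3f3b, against a background of 0.786%. Density was compared at the 4 genes with islands in all libraries. It was higher in fibers at H3f3a and Daxx, where 30.8% of the 5236 genes did the same, and higher in epithelium at H3f3b, where the background was 16.2%. The call at H3f3b held under each other choice of window, islands and libraries that left an island in every library, but several choices could not undo it. Leaving out 1 library keeps an order without overlap. Merging mixed the fiber islands with gaps and with islands beyond the window, so it does not test the call. The limit of 1000 bp and assignment by midpoint left the H3f3b densities unchanged. With islands limited by read count or by median density, they were 35.0 and 35.6 in epithelium against 32.1 and 29.1 in fibers. The call at Daxx was lost with the window narrowed to 2 kb on either side and with islands assigned by their midpoint. It was also lost when the densities of the islands were averaged without weights, and with an equal number of islands per library taken by read count. With islands of at least the median density of their library, or with reads divided by the total of reads in islands, the calls at both H3f3a and Daxx were lost. The exact two-sided permutation p was 0.33 for each of these differences, the smallest it can be, and the difference of the covered share was 6.97 percentage points at Hira, 20.1 at Asf1a, 22.5 at H3f3b, 25.9 at H3f3a, 28.4 at Daxx, 30.2 at Ubn1, 30.3 at Ubn2 and 32.0 at Cabin1. Single libraries moved 3 of these differences by more than 1.5 times: that at Hira was 3.29 without fiber replicate 1 and 10.7 without fiber replicate 2, that at Asf1a 12.1 without epithelium replicate 1, and that at H3f3a 15.5 without epithelium replicate 2 and 15.6 without fiber replicate 1.

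The direction of covered bp depended on the scale. When each gene was ranked by its covered share among all protein-coding genes of the same library, 3 genes, Hira, Ubn1 and Ubn2, stood higher in both fiber libraries, and H3f3b and Daxx stood higher in both epithelium libraries. H3f3b was above 97.8% and 96.3% of genes in epithelium replicates 1 and 2 and above 92.9% and 93.9% in fiber replicates 1 and 2. Daxx was above 96.8% and 96.9% against 96.3% and 92.8%, and H3f3a above 97.3% and 92.9% against 94.4% and 88.5%, so all 3 stayed among the most covered genes of every library. Ubn1 stood at 0% in both epithelium libraries against 76.5% and 65.8% in the fibers, Ubn2 at 0% against 72.7% and 71.3%, and Hira at 0% against 56.2% and 43.2%. Cabin1 was above 85.0% and 83.5% against 84.0% and 81.0%, which overlap. Asf1a had 0% and 82.8% in the epithelium and 70.7% and 70.4% in the fibers. When the same number of islands, 10389, was taken from every library in order of density, covered bp was higher in both fiber libraries at 2 of the 8 genes, and when they were taken in order of read count, at 3.

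**Figure D3:**
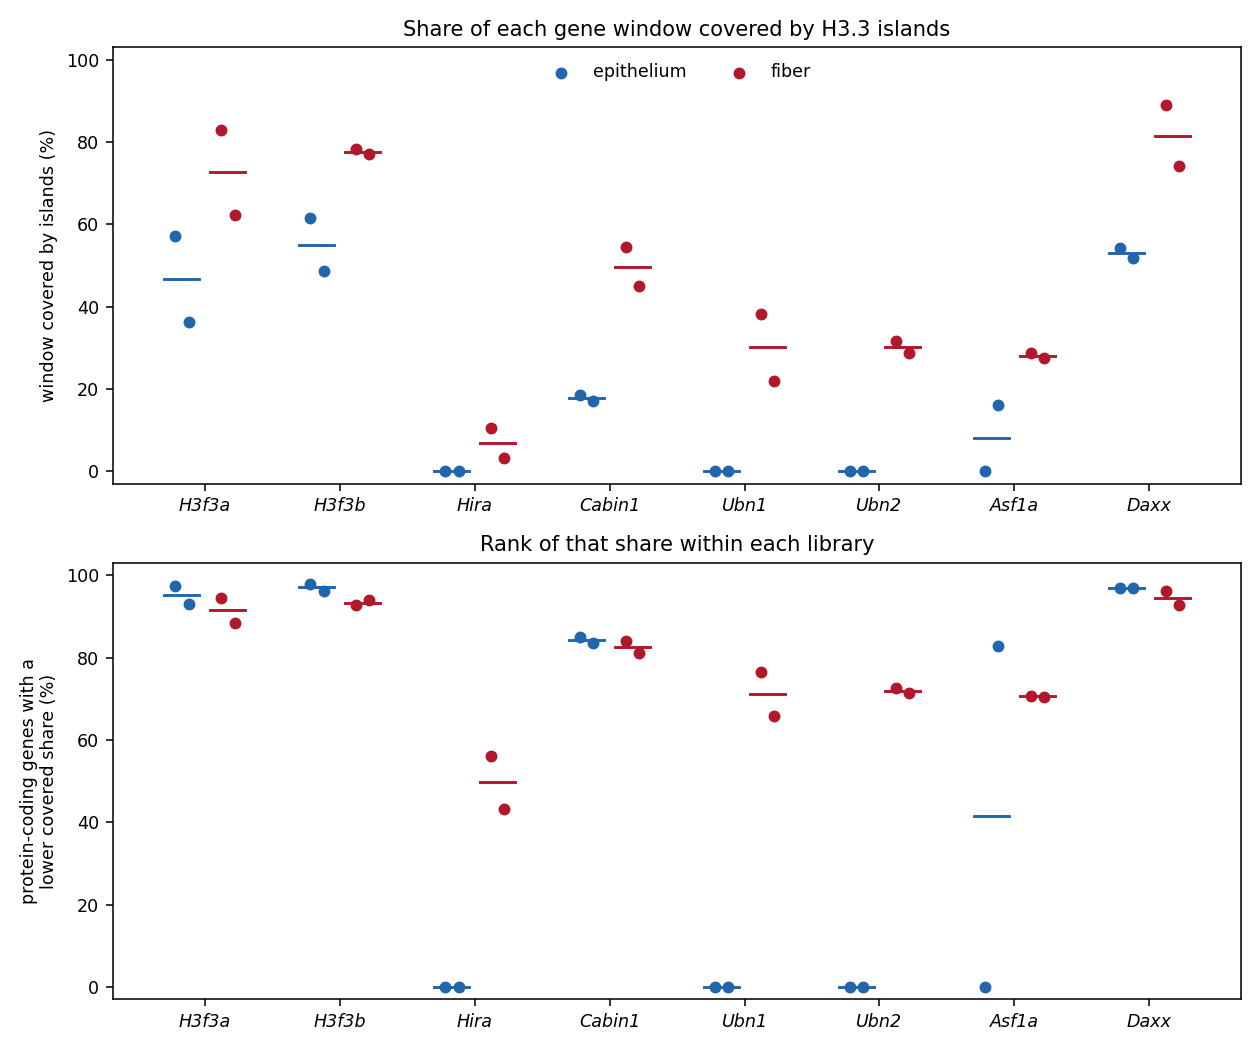
Share of the window covered by islands in percent (upper panel) and the percentage of protein-coding genes with a lower share in the same library (lower panel), for each gene in the 2 epithelium libraries (blue) and the 2 fiber libraries (red), with lines at the means. The red points lie above the blue ones at all 8 genes in the upper panel, and in the lower panel clearly so only at Hira, Ubn1 and Ubn2.

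The genes were ordered by their covered share in the fiber libraries. Daxx, H3f3b and H3f3a were covered to between 62.3% and 89.0% and overlapped with each other, followed by Cabin1 at 45.0% and 54.4%. Ubn1, Ubn2 and Asf1a, between 22.1% and 38.3%, overlapped or lay within the spread of Ubn1, and Hira came last. In the epithelium H3f3b, Daxx and H3f3a, between 36.3% and 61.6%, again overlapped and stood above Cabin1 in both libraries.

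**Figure D4:**
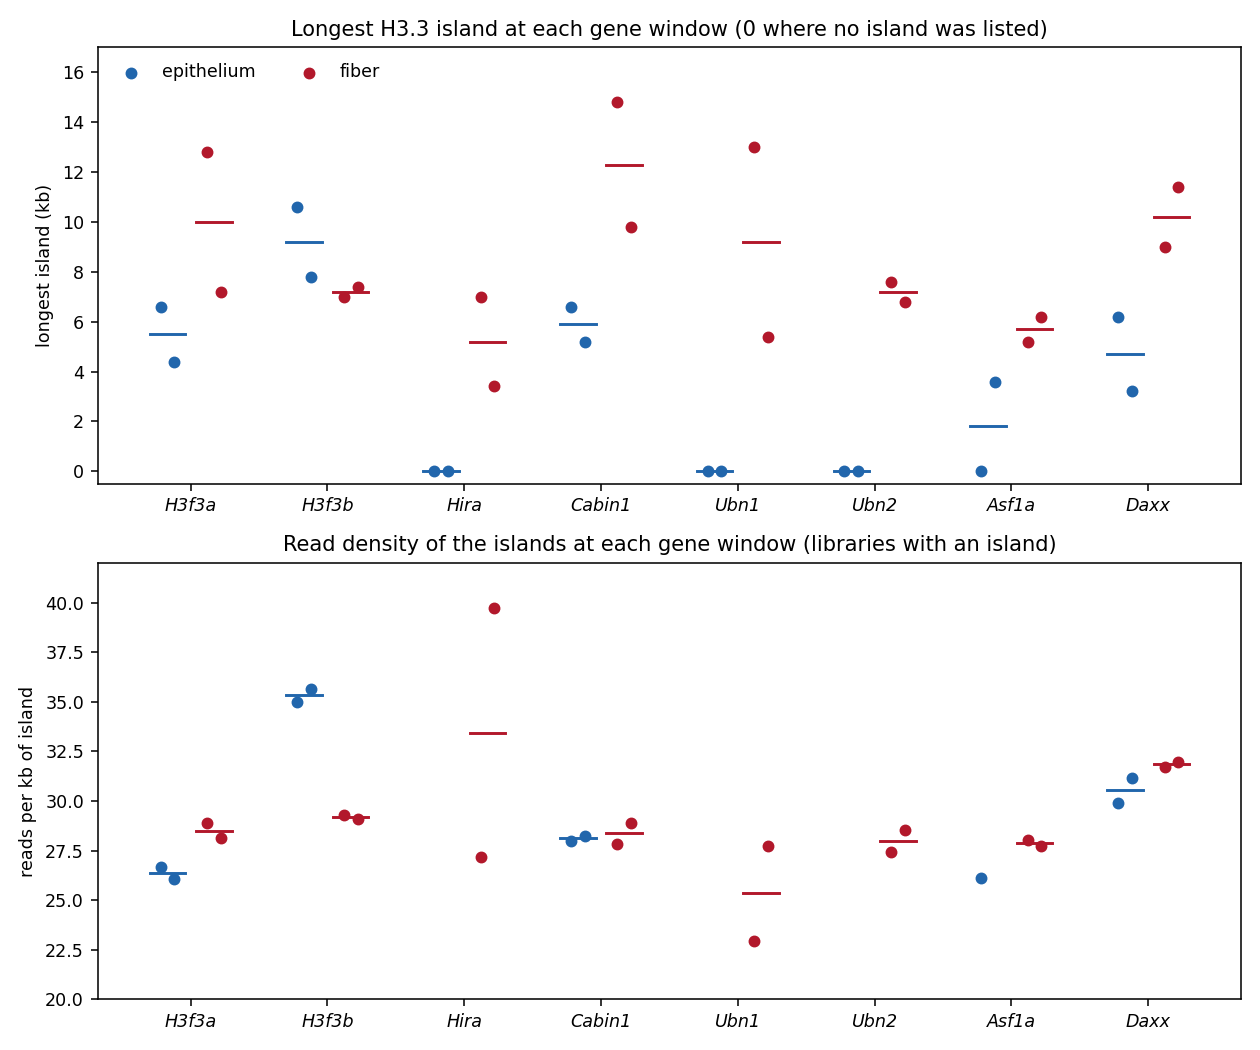
Length of the longest island in kb (upper panel) and reads per kb of island (lower panel, axis from 20 to 42) at each gene in the 2 epithelium libraries (blue) and the 2 fiber libraries (red), with lines at the means of 2 values. H3f3b is the gene at which both blue points lie above both red points in each panel.

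Another 16 genes of H3.3 and histone H3 handling were examined as a list, with Atrx, the partner of Daxx, subunits of CAF-1, which deposits the replicative H3, and chromatin remodelers among them. Of these, 14 had an island in at least 1 library and 9 in all 4, beside 64.5% and 23.9% of all protein-coding genes. More bp were covered in both fiber libraries at 12 of the 14, and in both epithelium libraries at 0, beside the 69.7% and 1.04% of all genes with an island. The median difference of the covered share was 19.4 percentage points over the 16 genes and 27.2 over the 8, beside 15.9 over all genes with an island and 4.72 over all protein-coding genes. Dek, Chd1 and Zmynd11 joined Hira, Ubn1 and Ubn2 in having islands in both fiber libraries and none in the epithelium.

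The largest difference was at Chd2, a remodeler known to promote H3.3 deposition, with 16.1% and 25.1% of the window covered in epithelium and 93.6% and 86.9% in fibers. It was followed by Rbbp4, a histone-binding subunit of CAF-1 and other complexes, with 20.4% and 13.6% against 71.1% and 57.7%, and by Npm1, nucleophosmin, with 18.2% and 30.6% against 67.5% and 72.2%. At the lower end was Chaf1b, a subunit of CAF-1, with 11.2% and 42.8% against 18.0% and 14.3%, where the groups overlapped. Atrx and Rbbp7 had no island in any library. Both are on the X chromosome, which held between 11 and 74 islands per library in all.

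The genes most like H3f3a and H3f3b were sought among all protein-coding genes, by the Euclidean distance over 8 percentiles, those of the covered share and of the island reads per kb of window in each of the 4 libraries. The nearest to H3f3a were Rexo1, Ttc16 and Spata33, at distances of 2.06, 2.47 and 2.86 percentile points, and the nearest to H3f3b were Cbx6, Cyc1 and Elmo2, at 2.05, 2.15 and 2.23. The windows of the latter 3 were covered to between 49.1% and 66.4% in epithelium and to between 75% and 82.3% in fibers. Their islands held between 28.7 and 30.6 reads per kb in epithelium and between 27.8 and 30.1 in fibers. At Elmo2 alone of the 3, both epithelium libraries had a higher density than both fiber libraries.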

How the data were processed

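H3.3 ChIP-seq of 4 libraries was used, 2 of lens epithelium and 2 of lens fibers. Per the methods, the authors aligned 75-nt single-end reads to mm10 using BWA aln and samse. SICER2 islands were called library by library (window 200 bp, gap 600 bp, false discovery rate 0.01, from the names of the lists). The deposited value is the read count of each island, not normalized. Tool versions, duplicate removal, read filters and whether calling used the pooled input are not given in the sources used here. The bisulfite libraries and the input were not analysed here.

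Windows were gene bodies of GENCODE vM21 with 5 kb on each side. Covered bp, longest island and reads per kb of island were computed per window and library with Python 3.11.15, numpy 2.4.6 and numba 0.67.0, drawn with matplotlib 3.10.9, and tested on simulated data. Compartments were compared by an exact two-sided permutation test of the 2 + 2 libraries. Percentiles give the share of genes or islands with a lower value in the same library. Motifs were counted in the 250 bases upstream of 32851 RefSeq starts, and all 8 genes were matched by symbol. Stretches of 75 nt were compared on both strands of 21 assembled chromosomes. Totals of reads in islands are not depths, so no counting intervals were computed, and the number of libraries limits the precision. Alternatives changed the window, the islands kept, the assignment, the scale and the libraries.

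The 8 genes, the list of 16 and the marker lists were chosen with earlier results of these data known. All 8 were named, with the 3 largest and 3 smallest differences of the list of 16, the 3 genes nearest to H3f3a and to H3f3b, and neighbours overlapping the windows. Dek, Chd1 and Zmynd11 were named after their values were seen.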

Additional observations from a re-analysis of the deposited data

How the results depend on the processing

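The count of genes with more bp covered in both fiber libraries, 8 of 8, became 2 with an equal number of islands per library taken by density, 3 with an equal number taken by read count, 5 with islands of at least the median density of their library and 3 on the percentile scale. The count for the longest island, 7, became 4 with an equal number of islands taken by density and 3 on the percentile scale, where H3f3a, H3f3b and Cabin1 stood higher in epithelium. The count for reads per kb, 2 of 4, became 1 with 2 kb on each side, 1 by midpoint, 1 with the unweighted mean, 0 with islands of at least the median density and 0 with reads divided by the total of reads in islands, a scale on which 100% of the 5236 genes were higher in epithelium. With an equal number of islands taken by density, the difference of the covered share turned to -5.62 percentage points at H3f3a, -33.3 at H3f3b, -4.78 at Cabin1, -8.01 at Asf1a and -8.65 at Daxx. The cause was not tested. The covered share was recomputed over the settings of window and islands and with 1 library left out. Of these 96 differences, 90 stayed above 0, 1 was 0 and 5 were below 0. Those with 1 library left out could not turn negative. A further reading of the 96 is that 11, among them the 1 at 0, moved by more than the spread between replicates without turning negative. The percentile scale, on which H3f3b and Daxx stood higher in both epithelium libraries, was not among the 96. Leaving out 1 library gave 8 to 8 genes for covered bp, 7 to 7 for the longest island and 2 to 3 for reads per kb. These counts could only stay or rise, because an order without overlap holds in any part of the libraries. They are therefore no test of single libraries. The reads per kb of Cabin1 were higher in fibers without fiber replicate 1 and higher in epithelium without fiber replicate 2. The gene body alone and islands of at least 1000 bp left the 3 counts at 8, 7 and 2. Merging islands no more than 1000 bp apart gave 8, 8 and 2.

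The libraries carry replicate numbers, but the deviations of the libraries with the same number correlated at 0.00586 over 14126 genes, so the numbers were not taken to pair the samples. A replicate block, comparing within number 1 and within number 2, gave 8, 7 and 2 genes. It could not lose a call, because an order without overlap also holds within each number. Depth is unknown, and a difference smaller than a few windows of 200 bp is within the resolution of the islands.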
